A study of Homo sapiens with 45 samples.

Results

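The expression of 10 keratin genes was followed through 45 RNA sequencing libraries labelled T47D, a human breast cancer cell line of luminal, oestrogen receptor positive type. The genes were chosen by name, with earlier results of these data known, and make up 10 of the 60624 genes listed in each of the 4 deposited count tables. Counts and medians set against all genes are therefore descriptions of a chosen set. KRT7, KRT8, KRT18 and KRT19 are keratins of simple and luminal epithelium, KRT15 and KRT17 are keratins of basal and stressed epithelium, KRT81 and KRT86 are hair keratins, KRT80 is an epithelial keratin and KRT10 is a keratin of differentiated epidermis. Each of the 15 groups had 3 libraries. The shRNA table held hypoxic cells with a hairpin against ZHX2 (shZHX2), hypoxic cells with a control hairpin (shCtrl) and normoxic shCtrl cells. The hexanediol table held hypoxic cells labelled Ctrl and hypoxic cells given 0.5% or 1% 1,6-hexanediol for 24 h, an alcohol that weakens phase-separated condensates. The rescue table held hypoxic shZHX2 cells carrying ZHX2 forms labelled WT, PA or SA or the vector, and hypoxic shCtrl cells with the vector. The sgRNA table held hypoxic cells labelled sgZHX2, sgCtrl, teton_sgZHX2 and teton_control. All cells had gone through lentiviral infection with hygromycin or puromycin selection, per the labels, which do not say whether lines were clones or whether replicates were separate cultures, so the p-values reflect variation among libraries that may be technical replicates. ZHX2 is a transcription factor with zinc fingers and homeodomains, and the stated aims were to find hypoxia-induced genes that depend on it and to measure expression once phase separation is disturbed.

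Keratins build the intermediate filaments of epithelial cells, and each filament needs an acidic type I chain paired with a basic type II chain. KRT8 (type II) and KRT18 (type I) form the basic pair of simple epithelium, KRT19 is a type I chain that joins KRT8 in luminal breast cells, and KRT7 is a type II chain of glandular and ductal epithelium. KRT15 and KRT17 are type I chains found in basal cells, and KRT17 is known to be induced in wounded and stressed epidermis. KRT81 and KRT86 are type II chains of the hair shaft, KRT80 is a type II chain, and KRT10 is the type I chain of suprabasal epidermis. Type II genes sit together on chromosome 12 and most type I genes on chromosome 17, with KRT18 beside KRT8 as the exception.

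On GRCh38, in the GENCODE 29 annotation, all 10 are protein-coding genes. On chromosome 12 lie KRT80 (chr12:52168996-52192000, minus strand), KRT7 (chr12:52232520-52252186, plus), KRT86 (chr12:52249300-52309163, plus), KRT81 (chr12:52285913-52291534, minus), KRT8 (chr12:52897187-52949954, minus) and KRT18 (chr12:52948871-52952901, plus). On chromosome 17 lie KRT10 (chr17:40818117-40822595), KRT15 (chr17:41513743-41522529), KRT19 (chr17:41523617-41528308) and KRT17 (chr17:41619441-41624842), all on the minus strand. Exonic GC content was 52.0% in KRT10 and up to 62.9% in KRT7.

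Some of these genes cannot be counted apart with certainty. KRT81 and KRT86 share an identical run of 605 bases in their coding sequences, coding bases 61 to 665 in both. The first 150 bases of that run are shown because a read pair drawn from them has no letter that tells the genes apart; each stretch lies within a single coding exon on GRCh38, and no base is capitalised since none differs.
KRT81, chr12:52291256-52291405, minus strand: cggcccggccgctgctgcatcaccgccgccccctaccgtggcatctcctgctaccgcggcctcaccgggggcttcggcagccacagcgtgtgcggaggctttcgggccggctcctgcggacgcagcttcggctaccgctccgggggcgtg
KRT86, chr12:52301977-52302126, plus strand: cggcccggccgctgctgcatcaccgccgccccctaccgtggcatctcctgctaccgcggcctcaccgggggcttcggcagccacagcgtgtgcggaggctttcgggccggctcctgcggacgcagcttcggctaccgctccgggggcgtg
Of all 75-base windows of their exons, 33% in KRT81 were also found in KRT86 and 28.6% in KRT86 were also found in KRT81, so the split of reads between these genes is uncertain. KRT18 shared 18.1% of its windows with the annotated 5' part of KRT8, which overlaps it on the opposite strand, and KRT7 shared 9.05% with its antisense gene KRT7-AS. The strand setting of the counting is not given in the sources used here, so reads of overlapping opposite genes cannot be told apart. KRT10, KRT15, KRT19 and KRT80 shared no window with another gene. Annotated exons of KRT10 nevertheless overlap TMEM99 on the opposite strand, and those of KRT15 overlap MIR6510 on the same strand. KRT86 overlaps AC021066.3 on the same strand and AC021066.1 and AC121757.1 on the opposite strand.

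Library totals ran from 14111216 to 27217814 counts, and 14302 to 16840 genes per table were tested after low counts were removed. CPM, a gene's counts expressed as parts of the TMM-adjusted library total, are scaled within a table and the tables were not normalised together. The ZHX2 transcript stood at 5.15 ± 1.53 CPM in shZHX2 cells and 18.8 ± 2.64 CPM in shCtrl cells of the shRNA table in hypoxia, and at 6.86 ± 0.545 CPM in shZHX2 vector cells and 32.0 ± 1.99 CPM in shCtrl vector cells of the rescue table (SD, n = 3 each). It was not lower in the libraries labelled sgZHX2 (49.6 ± 1.69 CPM) than in sgCtrl (45.1 ± 1.36 CPM), nor in those labelled teton_sgZHX2 (49.3 ± 1.34 CPM) than in teton_control (47.5 ± 1.85 CPM), and gene-level counts do not show whether protein was lost there. All 12 luminal markers other than keratins had counts in each group, while the 8 basal and myoepithelial markers together stayed between 4.97 and 26.7 CPM and the 5 leukocyte markers at or under 2.92 CPM. The second libraries of both hexanediol doses stood apart from their replicates, as given with those results.

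**Figure D1:**
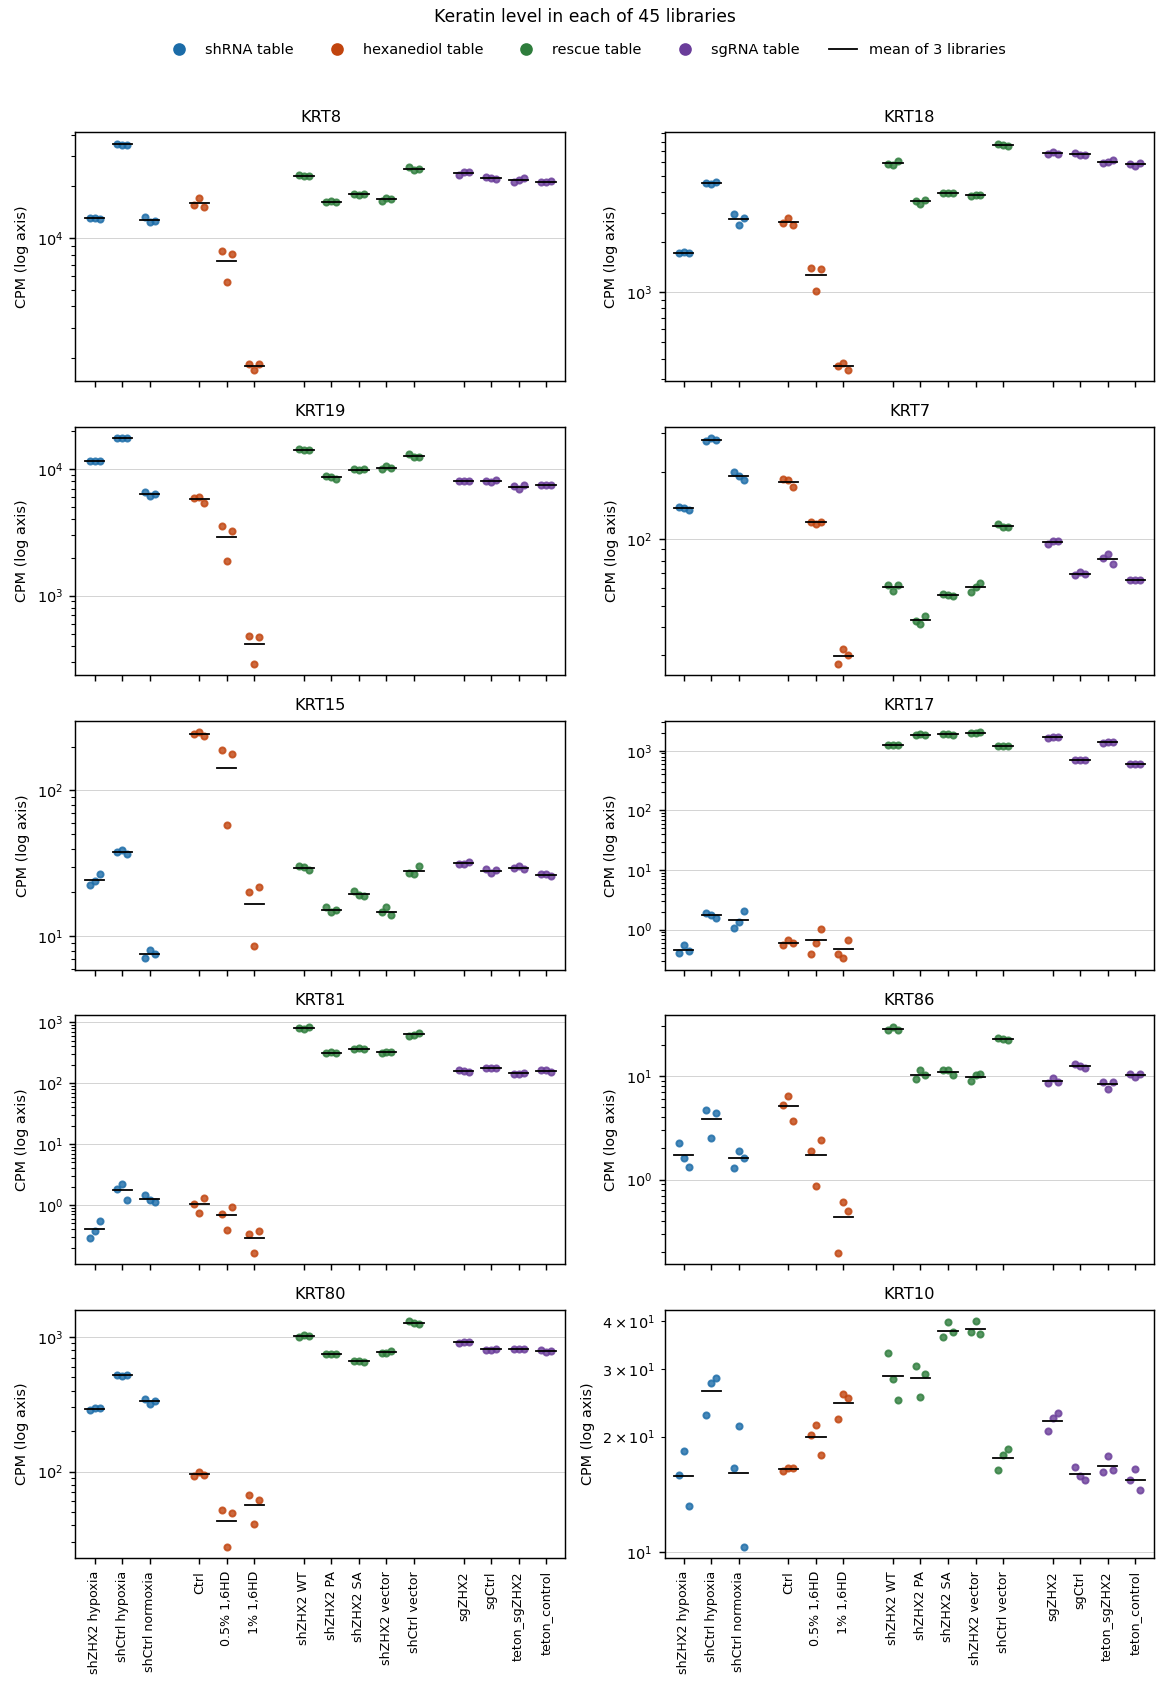
CPM (log axis) of each of the 10 keratins in every library, grouped by the 15 groups and coloured by table, with a bar at the mean of 3 libraries. KRT17 and KRT81 lie between 141 and 2029 CPM in the rescue and sgRNA tables and at or below 2.21 CPM in the shRNA and hexanediol tables.

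On a scale of reads per kilobase of exon, corrected for depth (RPKM), KRT19, KRT8 and KRT18 were the most abundant members in all 15 groups. In hypoxic shCtrl cells of the shRNA table the order was KRT19 at 7480 RPKM, KRT8 at 5104, KRT18 at 1399, KRT80 at 119, KRT7 at 68.5, KRT10 at 12.3 and KRT15 at 5.37 RPKM. KRT86 at 1.62 RPKM and KRT81 at 0.908 RPKM came next, with library values that overlapped, and KRT17 was last at 0.558 RPKM. In normoxic shCtrl cells the first 7 members kept this order, from KRT19 at 2721 RPKM to KRT15 at 1.08 RPKM, and the libraries of KRT86, KRT81 and KRT17 overlapped between 0.471 and 0.668 RPKM on average. The exon length of KRT8, 6881 bases, includes long annotated forms, so its level per length may be understated relative to the others.

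The tables differed in which minor keratins they held. KRT17 ranged from 597 to 2029 CPM over the 27 libraries of the rescue and sgRNA tables and from 0.330 to 2.04 CPM over the 18 libraries of the shRNA and hexanediol tables. KRT81 ranged from 141 to 842 CPM and from 0.165 to 2.21 CPM over the same sets. KRT80 and KRT86 did not overlap either, at 650 to 1310 CPM and 27.5 to 521 CPM for KRT80 and at 7.48 to 29.8 CPM and 0.197 to 6.44 CPM for KRT86. In shCtrl vector cells KRT17 was thus the fourth member per length at 379 RPKM, ahead of KRT81 at 328 and KRT80 at 293 RPKM. The other 6 members overlapped between the sets. The lowest rescue or sgRNA value over the highest shRNA or hexanediol value was 293 for KRT17 and 63.7 for KRT81. It was only 1.25 for KRT80 and 1.16 for KRT86. CPM were not scaled between tables, and the share of all genes without overlap between the sets was not computed. All 4 tables carry the same cell line label, and what lies behind the gap was not tested.

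As fitted, the luminal keratins were higher in hypoxia, but KRT18 and KRT7 were not once GC content and length were corrected, as given below. In shCtrl cells 8 of the 10 keratins were higher in hypoxia than in normoxia and none was lower, where 79.9% of 14903 genes were called at all (edgeR's quasi-likelihood test, Benjamini-Hochberg adjusted p under 0.05, used for all calls). Of all genes, 6421 were higher and 5485 lower, so the share of keratins called was close to that of all genes. The median log2 fold change was 0.71 over the keratins and 0.12 over all genes. The members' summed share of all counts, which uses no scaling, was 4.88 to 4.94% in hypoxia and 2.58 to 2.74% in normoxia. In bulk RNA a change in the number of cells of a kind and a change in RNA per cell cannot be told apart.

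KRT8 had 35453, 34867 and 35044 CPM in the hypoxic shCtrl libraries, against 13231, 12358 and 12642 CPM in the normoxic ones. The groups were far apart, with a log2 fold change of 1.46 (SE 0.02, adjusted p = 1.69e-50). KRT19, its luminal type I partner, changed by the same amount, 1.46 (SE 0.02), with 17513, 17429 and 17478 CPM in hypoxia and 6602, 6121 and 6347 CPM in normoxia, so that the libraries held 49.8 ± 0.314 KRT19 counts per 100 KRT8 counts in hypoxia and 49.9 ± 0.337 in normoxia. KRT18, the other partner of KRT8, rose less, by 0.71 (SE 0.04, adjusted p = 2.87e-08), with 4489, 4455 and 4557 CPM in hypoxia and 2946, 2536 and 2781 CPM in normoxia. The basal keratin KRT15 had the largest rise of the 10, from a low level, with 37.8, 39.2 and 36.9 CPM in hypoxia and 7.07, 8.12 and 7.63 CPM in normoxia (log2 fold change 2.32, SE 0.08, adjusted p = 6.85e-34). KRT7 rose by 0.54 (SE 0.03), KRT80 by 0.64 (SE 0.03), KRT86 by 1.27 (SE 0.23) and KRT10 by 0.71 (SE 0.27, adjusted p = 0.0456). KRT17 (log2 fold change 0.24, adjusted p = 0.451) and KRT81 (0.45, adjusted p = 0.16) held 20 to 47 counts a library and were not called.

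The hypoxia result depended on how libraries were made comparable. Fold changes over all genes followed GC content (Spearman's rho 0.694 across genes, which are not independent), and with GC content and length corrected 3 keratins were higher and 2 lower, with KRT8 at 0.93, KRT19 at 0.51, KRT15 at 1.78, KRT18 at 0.02 (adjusted p = 0.582), KRT80 at -0.06 and KRT7 at -0.35. KRT86 (0.34) and KRT10 (0.22) lost their calls, and KRT17 and KRT81 turned to -0.55 and -0.54 without a call. Scaling by library size alone moved the median of all genes by -0.48, and KRT7 was then at 0.06 (adjusted p = 0.0743) and KRT10 at 0.23 (adjusted p = 0.475). Mitochondrial counts made up 9.12 to 9.57% in hypoxia and 4.55 to 4.76% in normoxia, and their part in the result was not tested. The KRT10 call was also lost without any 1 of the hypoxic libraries or without the first normoxic library (0.66 to 0.81), with DESeq2 size factors or without the count filter (0.67 in both), and with only the compared groups fitted (0.61).

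With ZHX2 knocked down in hypoxia, 9 of the 10 keratins were lower than in hypoxic shCtrl cells and none was higher, where 66.8% of genes were called. The median was -1.09 over the keratins and 0.02 over all genes. Library values did not overlap between the groups for any of the 10, but the share of all genes without overlap was not computed. The members' share of counts was 2.66 to 2.67% in shZHX2 cells and 4.88 to 4.94% in shCtrl cells. KRT8 had 13136, 13054 and 12980 CPM in shZHX2 cells, against the 34867 to 35453 CPM of shCtrl cells (log2 fold change -1.43, SE 0.02, adjusted p = 1.89e-49). KRT18 fell by a like amount, to 1729, 1737 and 1707 CPM in shZHX2 cells, against 4455 to 4557 CPM in shCtrl cells (-1.38, SE 0.04, adjusted p = 1.01e-10), and the ratio of KRT8 to KRT18 counts was 7.57 ± 0.0488 in shZHX2 cells and 7.80 ± 0.106 in shCtrl cells. KRT19 fell less, by 0.60 on the log2 scale (SE 0.02), to 11583, 11481 and 11473 CPM in shZHX2 cells, against 17429 to 17513 CPM in shCtrl cells, and there were 88.2 ± 0.221 KRT19 counts per 100 KRT8 counts in shZHX2 cells.

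KRT7 stood at 138 ± 1.68 CPM in shZHX2 cells and 280 ± 5.32 CPM in shCtrl cells (-1.03, SE 0.03), and KRT80 at 294 ± 5.82 CPM in shZHX2 cells and 518 ± 5.05 CPM in shCtrl cells (-0.82, SE 0.03). KRT15 had 22.4, 23.9 and 26.7 CPM in shZHX2 cells and 37.8, 39.2 and 36.9 CPM in shCtrl cells (-0.64, SE 0.07, adjusted p = 1.1e-11). The remaining keratins called were near the floor of detection in this table. KRT17 had 7, 10 and 8 counts in shZHX2 libraries and 29, 28 and 26 in shCtrl libraries (-1.89, SE 0.36, adjusted p = 6.93e-06), KRT81 had 5, 7 and 10 counts in shZHX2 libraries and 28, 35 and 20 in shCtrl libraries (-2.08, SE 0.37, adjusted p = 2.33e-06), and KRT86 had 39, 30 and 24 counts in shZHX2 libraries and 72, 40 and 72 in shCtrl libraries (-1.16, SE 0.24, adjusted p = 2.84e-05). KRT10 had 15.9, 18.3 and 13.2 CPM in shZHX2 cells and 22.8, 27.6 and 28.5 CPM in shCtrl cells, and was not called (-0.73, SE 0.28, adjusted p = 0.0542), although DESeq2 called it (adjusted p = 0.0267). All 10 kept their direction and their side of the threshold after correction for GC content and length. Mitochondrial counts were 11.9 to 12.4% in shZHX2 cells and 9.12 to 9.57% in shCtrl cells, the 6 fibroblast markers summed to 69.7 to 72.5 CPM in shZHX2 cells and 47.4 to 52.0 CPM in shCtrl cells, and the 8 basal markers to 4.97 to 6.93 CPM in shZHX2 cells and 12.0 to 15.0 CPM in shCtrl cells with KRT5 and KRT6A at 0 in both; their part in the result was not tested.

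Set against normoxic shCtrl cells, the hypoxic shZHX2 cells differed member by member. Here 2 keratins were higher and 5 lower, in a comparison that called 81.6% of genes, and it shares its libraries with both comparisons above. KRT8 was not called, at 12980 to 13136 CPM in hypoxic shZHX2 cells and 12358 to 13231 CPM in normoxic shCtrl cells (0.04, SE 0.02, adjusted p = 0.169). It was called at 0.06 without the first normoxic library (adjusted p = 0.00661) and turned to -0.40 under the GC and length correction. KRT15 and KRT19 stayed above normoxia by 1.68 (SE 0.08) and 0.86 (SE 0.02), or by 1.24 and 0.16 under that correction. KRT18, KRT7 and KRT80 were below it by log2 fold changes of -0.68 (SE 0.04), -0.48 (SE 0.03) and -0.18 (SE 0.03), as were KRT17 (-1.66, SE 0.36) and KRT81 (-1.63, SE 0.38), and the correction took KRT80 to -0.71. KRT86 (0.11) and KRT10 (-0.02) were not called, and neither kept its direction when each library was left out in turn (-0.11 to 0.27 and -0.27 to 0.24). KRT86 turned to -0.58 under the correction and was then called (adjusted p = 0.0385).

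**Figure D2:**
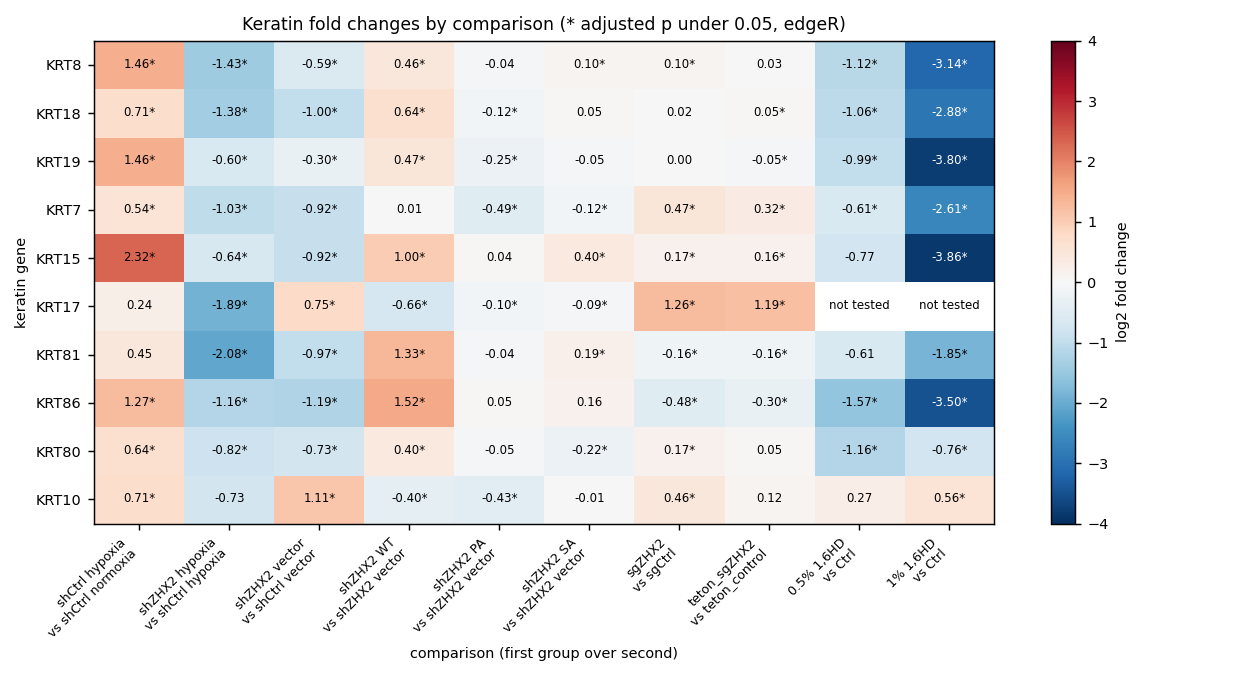
Log2 fold changes of the 10 keratins (rows) in 10 comparisons (columns), each the first named group over the second, with an asterisk where the adjusted p was under 0.05. KRT17 and KRT10 stand out from the other rows, with 0.75 and 1.11 for shZHX2 vector over shCtrl vector, where the other 8 keratins are below 0.

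The second knockdown, in the rescue table, gave 10 calls of 10 keratins, 8 lower and 2 higher in shZHX2 vector cells than in shCtrl vector cells, where 69.2% of 14302 genes were called. The median was -0.82 over the keratins and -0.01 over all genes. KRT8 had 16512, 17090 and 16788 CPM in shZHX2 vector cells, against 25774, 25035 and 25184 CPM in shCtrl vector cells (-0.59, SE 0.02, adjusted p = 1.47e-36). KRT18 had 3786, 3825 and 3834 CPM in shZHX2 vector cells, against 7773, 7641 and 7527 CPM in shCtrl vector cells, a larger fall than that of its partner (adjusted p = 2.06e-49), and the KRT8 to KRT18 count ratio was 4.40 ± 0.0571 in shZHX2 vector cells and 3.31 ± 0.0350 in shCtrl vector cells. KRT19 fell by 0.30 on the log2 scale (SE 0.03), KRT7 by 0.92 (SE 0.04), KRT80 by 0.73 (SE 0.03) and KRT15 by 0.92 (SE 0.07).

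The hair keratins, of which KRT81 was abundant in this table, fell as well. KRT81 had 316, 326 and 326 CPM in shZHX2 vector cells and 605, 623 and 668 CPM in shCtrl vector cells (-0.97, SE 0.03, adjusted p = 6.02e-42), and KRT86 had 8.93, 10.1 and 10.5 CPM in shZHX2 vector cells and 23.0, 22.5 and 22.2 CPM in shCtrl vector cells (-1.19, SE 0.08, adjusted p = 2.28e-24). The stress keratin KRT17 went the other way, with 1981, 1992 and 2029 CPM in shZHX2 vector cells and 1179, 1187 and 1194 CPM in shCtrl vector cells (0.75, SE 0.03, adjusted p = 3.98e-41). KRT10 was also higher, with 37.4, 40.0 and 37.0 CPM in shZHX2 vector cells and 16.4, 17.9 and 18.6 CPM in shCtrl vector cells (1.11, SE 0.08, adjusted p = 9.93e-12). No library of the groups overlapped for any of the 10 keratins, though the share of all genes without overlap was not computed. All 10 kept their call and direction with GC content and length corrected. Mitochondrial counts were 0.785 to 0.807% in shZHX2 vector cells and 0.749 to 0.778% in shCtrl vector cells, and the fibroblast markers summed to 27.9 to 30.6 CPM in shZHX2 vector cells and 17.2 to 21.3 CPM in shCtrl vector cells; their part was not tested. KRT17 fell in the shRNA table, where hypoxic shCtrl cells held 1.75 CPM, and rose in the rescue table, where shCtrl vector cells held 1187 CPM, and the difference between the tables was not tested.

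With the WT form of ZHX2 most keratins differed from vector in the direction opposite to their knockdown change. Both comparisons use the same shZHX2 vector libraries, so they are not independent. A shift in those libraries alone would give opposite signs. Against shZHX2 vector cells, WT cells had 7 keratins higher and 2 lower, where 69.7% of genes were called (median 0.46 over the keratins and 0.00 over all genes). KRT81 had 801, 784 and 842 CPM in WT cells, against 316, 326 and 326 CPM in vector cells (1.33, SE 0.03, adjusted p = 1.61e-50), and KRT86 had 27.5, 29.8 and 28.0 CPM in WT cells, against 8.93, 10.1 and 10.5 CPM in vector cells (1.52, SE 0.07, adjusted p = 3.63e-31). KRT15 rose, with 29.6 ± 1.08 CPM in WT cells and 14.8 ± 0.917 CPM in vector cells (1.00, SE 0.07). KRT8 reached 23344, 22957 and 23120 CPM in WT cells (0.46, SE 0.02), and KRT18 5882, 5815 and 6087 CPM (0.64, SE 0.03), while KRT19 rose by 0.47 and KRT80 by 0.40. KRT17 was lower, at 1260, 1263 and 1265 CPM in WT cells and 1981 to 2029 CPM in vector cells (-0.66, SE 0.03, adjusted p = 1.07e-37), and so was KRT10 (-0.40, SE 0.08, adjusted p = 6.19e-05). KRT7 did not follow, with 62.4, 58.5 and 62.3 CPM in WT cells and 57.8, 60.9 and 63.1 CPM in vector cells (0.01, SE 0.04, adjusted p = 0.835), although it was called at 0.37 under the GC and length correction. Mitochondrial counts were 0.312 to 0.333% in WT cells and 0.785 to 0.807% in vector cells, the 6 fibroblast markers summed to 13.2 to 15.5 CPM in WT cells and 27.9 to 30.6 CPM in vector cells, and the 8 basal markers to 17.5 CPM or more in WT cells and 13.3 to 14.9 CPM in vector cells; their part was not tested.

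WT cells were compared with shCtrl vector cells to see how far the levels came back; 5 keratins were higher and 4 lower, none by 2-fold, where 54.2% of genes were called. KRT15 was not called (0.08, adjusted p = 0.296), at 28.3 to 30.3 CPM in WT cells and 26.7 to 30.3 CPM in shCtrl cells, but was called at 0.31 with GC content and length corrected (adjusted p = 1.05e-05) and stood at -0.04 by library size alone. KRT17 was at 0.09 (adjusted p = 0.00196) and KRT8 at -0.13; scaling by library size turned KRT17 to -0.02 and gave 3 keratins higher and 4 lower, and the GC and length correction turned KRT8 to 0.10. ZHX2 RNA itself was above the shCtrl level, at 72.3 ± 1.44 CPM in WT cells and 32.0 ± 1.99 CPM in shCtrl vector cells (1.18, SE 0.05). KRT81 (0.36), KRT86 (0.33) and KRT19 (0.16) stood above shCtrl. KRT7 at 61.1 ± 2.20 CPM in WT cells and 115 ± 1.68 CPM in shCtrl cells (-0.91, SE 0.04), KRT18 (-0.37) and KRT80 (-0.33) stayed below it, and KRT10 stayed above (0.71, SE 0.09).

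With the PA and SA forms most keratins lay close to the vector level. ZHX2 RNA was present in both, at 54.0 ± 0.436 CPM in PA cells and 80.5 ± 2.26 CPM in SA cells, against 72.3 ± 1.44 CPM in WT cells. Against vector, PA cells had 5 keratins lower and none higher, where 47.6% of genes were called, and SA cells had 3 higher and 3 lower, where 41.7% were called, with no change of 2-fold in either. KRT81 had 310, 319 and 311 CPM in PA cells (-0.04, adjusted p = 0.249) and 370, 377 and 360 CPM in SA cells (0.19, SE 0.03), against 316, 326 and 326 CPM with vector. KRT17 had 1864, 1910 and 1830 CPM in PA cells (-0.10, adjusted p = 0.00062) and 1907, 1889 and 1851 CPM in SA cells (-0.09, adjusted p = 0.00275), against 1981 to 2029 CPM with vector. KRT15 was not called in PA cells (0.04) and rose by 0.40 in SA cells (SE 0.07, adjusted p = 7.37e-07). KRT8 was at -0.04 with PA (adjusted p = 0.119) and at 0.10 with SA. KRT7 fell to 43.2 ± 1.84 CPM in PA cells, against 60.6 ± 2.62 CPM with vector (-0.49, SE 0.04), and KRT10 (-0.43, SE 0.08) and KRT19 (-0.25) were lower in PA cells as well, while KRT80 was lower in SA cells (-0.22, SE 0.03). The direction of several of the smaller differences depended on the scaling. By library size, which moved the median of all genes by 0.15 for PA over vector, 5 keratins were higher and 3 lower in PA cells. With GC content and length corrected the counts were 4 higher and 2 lower in PA cells and 8 higher and 1 lower in SA cells; KRT7 and KRT10 in PA cells (-0.37 and -0.26) and KRT15 and KRT80 in SA cells (0.57 and -0.08) kept their direction and call.

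**Figure D3:**
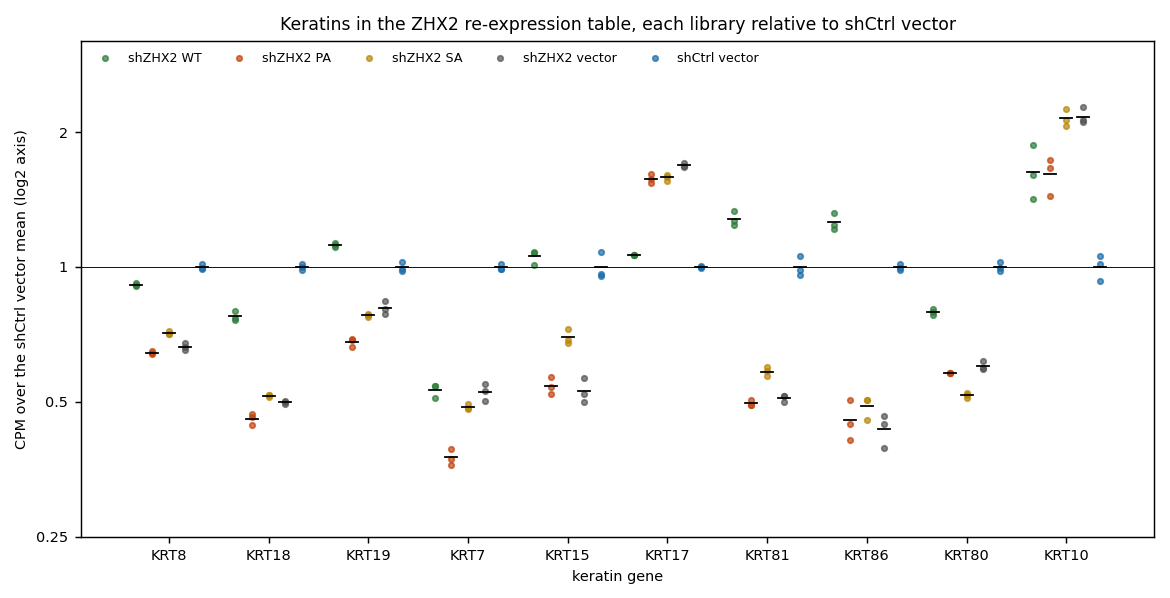
CPM of each keratin relative to the mean of shCtrl vector cells (log2 axis) in the libraries of the rescue table, in the order WT, PA, SA and vector in shZHX2 cells and vector in shCtrl cells, with a bar at the mean of 3 libraries. The PA, SA and vector libraries lie near each other for most keratins, and the WT libraries lie apart from them for KRT81, KRT86, KRT15, KRT8, KRT18, KRT19, KRT80 and KRT17.

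Set directly against WT, both forms had lower keratins. PA cells had 8 lower and 1 higher, where 66.9% of genes were called, and SA cells had 8 lower and 2 higher, where 64.1% were called, with medians of -0.61 and -0.55 over the keratins and 0.00 and 0.01 over all genes. KRT86 was lowest relative to WT, by -1.47 in PA cells and -1.36 in SA cells, then KRT81, by -1.37 and -1.13. KRT8 differed by -0.51 and -0.36, KRT18 by -0.76 and -0.59, KRT19 by -0.72 and -0.52, KRT15 by -0.96 and -0.60, KRT80 by -0.45 and -0.62, and KRT7 by -0.50 and -0.13 in PA and SA cells. KRT17 was higher than with WT by 0.57 in PA cells and 0.58 in SA cells. KRT10 was higher in SA cells (0.39, adjusted p = 0.000106) and not called in PA cells (-0.03, adjusted p = 0.79). With GC content and length corrected the keratins kept their direction and call in both comparisons, which share the WT libraries, except that the uncalled KRT10 turned to 0.08 in PA cells. Mitochondrial counts were 1.16 to 1.26% in PA cells, 1.12 to 1.19% in SA cells and 0.312 to 0.333% in WT cells, and their part was not tested. ZHX2 RNA differed from WT by -0.42 in PA cells (SE 0.04) and by 0.15 in SA cells (SE 0.04). The part of the ZHX2 level was not tested either.

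In the sgRNA table KRT17 stood out. Libraries labelled sgZHX2 had 1658, 1670 and 1688 CPM of KRT17, against 693, 692 and 707 CPM in sgCtrl (1.26, SE 0.02, adjusted p = 2.36e-39), and those labelled teton_sgZHX2 had 1368, 1378 and 1383 CPM, against 609, 597 and 608 CPM in teton_control (1.19, SE 0.02, adjusted p = 3.39e-38). It was the only member changed by 2-fold or more in either comparison as fitted. Under the GC and length correction its changes were 0.78 and 0.83, below 2-fold, and KRT86 was past 2-fold with sgZHX2 (-1.03). The KRT17 effects of the teton_sgZHX2 and sgZHX2 libraries differed by -0.07 (SE 0.03, adjusted p = 0.0868), which was not called.

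The changes of the other keratins were smaller and depended on the correction. Between sgZHX2 and sgCtrl 6 were higher and 2 lower, where 73.1% of 15781 genes were called, and between teton_sgZHX2 and teton_control 4 were higher and 3 lower, where 69.1% were called. The medians were 0.14 and 0.05 over the keratins and 0.01 and 0.00 over all genes. KRT8 had 23450, 24145 and 24146 CPM with sgZHX2 and 22617, 22272 and 22195 CPM with sgCtrl (0.10), and KRT18 (0.02) and KRT19 (0.00) were not called. KRT7 had 94.8, 98.5 and 97.6 CPM with sgZHX2 and 69.2, 71.1 and 69.4 CPM with sgCtrl (0.47, SE 0.04, adjusted p = 1.98e-16), and 81.9, 85.8 and 77.2 CPM with teton_sgZHX2 and 65.7, 65.3 and 65.6 CPM with teton_control (0.32, SE 0.04). The hair keratins were lower in both, KRT86 by -0.48 (SE 0.08, adjusted p = 1.47e-06) and -0.30 (SE 0.08), and KRT81 by -0.16 in each. With GC content and length corrected 2 keratins were higher and 8 lower for sgZHX2, and 1 was higher and 7 lower for teton_sgZHX2. KRT86 was then at -1.03 and -0.70, KRT81 at -0.71 and -0.56 and KRT19 at -0.56 and -0.46, all called. By library size alone the split for teton_sgZHX2 was 7 higher and 2 lower; fold changes of all genes followed GC content with a rho of 0.563 and 0.467. Fibroblast markers summed to 53.6 to 55.5 CPM with sgZHX2 and 26.5 to 29.5 CPM with sgCtrl, and to 48.5 to 48.6 CPM with teton_sgZHX2 and 28.6 to 31.2 CPM with teton_control. Basal markers summed to 25.0 to 26.7 CPM with sgZHX2 and 17.4 to 18.1 CPM with sgCtrl, and to 22.6 to 23.5 CPM with teton_sgZHX2 and 15.4 to 16.3 CPM with teton_control. Mitochondrial counts were 1.67 to 1.71% with sgZHX2 and 2.51 to 2.71% with sgCtrl, and 1.69 to 1.82% with teton_sgZHX2 and 2.83 to 2.95% with teton_control. The part of these values in the result was not tested.

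The effects of the teton_sgZHX2 and sgZHX2 libraries differed for 3 keratins, in a test that called 20.3% of genes. KRT10 rose with sgZHX2, at 20.7, 22.3 and 23.0 CPM against 16.7, 15.8 and 15.4 CPM with sgCtrl (0.46, SE 0.06, adjusted p = 1.52e-08), and had 16.2, 17.8 and 16.4 CPM with teton_sgZHX2 and 15.4, 16.5 and 14.5 CPM with teton_control (0.12, adjusted p = 0.103). The difference of these effects was -0.34 (SE 0.09, adjusted p = 0.0054). It was -0.15 (SE 0.05, adjusted p = 0.0237) for KRT7 and -0.12 (SE 0.03, adjusted p = 0.00467) for KRT80. The calls for KRT7 and KRT80 were lost without the first teton_control library, at -0.14 and -0.10, and under the GC and length correction, which gave 3 keratins higher and 1 lower, these differences were 0.02 and 0.00.

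The luminal keratins were lower at each step of hexanediol dose. The members' summed share of counts was 2.18 to 2.45% in hypoxic Ctrl cells, 0.887 to 1.4% at 0.5% hexanediol and 0.256 to 0.304% at 1%. At 0.5% against Ctrl, 6 of the 9 keratins tested were lower and none higher, where 39.0% of 16840 genes were called (5 lower and 1 higher, KRT10, by library size alone); at 1% against Ctrl 8 were lower and 1 higher, where 62.5% were called; and at 1% against 0.5% 7 were lower and 1 higher, where 56.0% were called. The medians were -0.99, -2.88 and -1.93 over the keratins and 0.00, -0.04 and -0.02 over all genes. KRT17, with 6 to 15 counts a library, was below the count filter and was not tested.

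KRT8 had 15603, 17038 and 15129 CPM in Ctrl cells, 8396, 5570 and 8035 CPM at 0.5% and 1842, 1714 and 1845 CPM at 1%. The groups did not overlap at any step, and the log2 fold change was -3.14 for 1% against Ctrl (SE 0.14, adjusted p = 1.49e-09) and -1.12 for 0.5% against Ctrl (SE 0.13, adjusted p = 2.61e-05). KRT18 moved with it (-2.88, SE 0.11, and -1.06, SE 0.10), and there were 6.03 ± 0.0678 KRT8 counts per KRT18 count in Ctrl cells, 5.76 ± 0.270 at 0.5% and 5.02 ± 0.427 at 1%. KRT19 had 5870, 6045 and 5343 CPM in Ctrl cells, 3575, 1884 and 3239 CPM at 0.5% and 481, 289 and 473 CPM at 1% (-3.80 for 1% against Ctrl, SE 0.31, adjusted p = 3.18e-05). KRT7 had 172 to 187 CPM in Ctrl cells, 117 to 120 CPM at 0.5% and 27.3 to 31.8 CPM at 1% (-2.61, SE 0.08, and -0.61, SE 0.07, against Ctrl). KRT15 fell furthest at 1% (-3.86, SE 0.56, adjusted p = 0.00102), with 243, 250 and 235 CPM in Ctrl cells, 189, 58.2 and 179 CPM at 0.5% and 20.0, 8.62 and 21.8 CPM at 1%. Between 0.5% and Ctrl its spread left no call (-0.77, SE 0.49, adjusted p = 0.272).

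The hair keratin KRT86 had 76, 86 and 56 counts in Ctrl libraries, 29, 13 and 36 at 0.5% and 3, 11 and 8 at 1% (-3.50, SE 0.40, for 1% against Ctrl), and KRT81 had 15, 10 and 20 counts in Ctrl libraries, 11, 6 and 14 at 0.5% and 5, 3 and 6 at 1% (-1.85, SE 0.43, adjusted p = 0.0017). KRT80 fell at 0.5% and no further, with 93.0, 99.3 and 94.4 CPM in Ctrl cells, 51.8, 27.5 and 49.3 CPM at 0.5% and 67.1, 41.1 and 61.7 CPM at 1% (-1.16 for 0.5%, SE 0.26, -0.76 for 1%, SE 0.26, adjusted p = 0.0366, both against Ctrl). KRT10 alone was higher at 1% than in Ctrl cells (0.56, SE 0.10, adjusted p = 0.000185), with 16.3, 16.6 and 16.6 CPM in Ctrl cells, 20.2, 21.4 and 17.9 CPM at 0.5% and 22.2, 25.8 and 25.2 CPM at 1%. Relative to KRT8 it had 1.04 ± 0.0615 counts per 1000 KRT8 counts in Ctrl cells, 2.83 ± 0.889 at 0.5% and 13.6 ± 1.50 at 1%. The 12 other luminal markers summed to 5591 to 5975 CPM in Ctrl cells, 5736 to 5958 CPM at 0.5% and 2269 to 2599 CPM at 1%, so at 0.5% their sum overlapped with Ctrl while KRT7, KRT8, KRT18 and KRT19 did not.

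The second libraries of both doses differed most from their replicates: chi-square over its degrees of freedom was 29.5 and 27.3 for the 0.5% dose and 9.77 and 9.90 for the 1% dose, and both were the lowest of their group in KRT8, KRT19, KRT15 and KRT80. Without both, the changes at 0.5% against Ctrl were -0.96 for KRT8, -0.93 for KRT18, -0.76 for KRT19, -0.92 for KRT80 and -0.40 for KRT15, which was then called (adjusted p = 3.46e-07), and 7 keratins were lower. At 1% against Ctrl they were -3.11 for KRT8, -3.59 for KRT19 and -3.54 for KRT15, with 8 lower and 1 higher as before. KRT80 was then higher at 1% than at 0.5% (0.35, adjusted p = 4.74e-05), against 0.40 and no call with all libraries. The KRT19 call at 0.5% was lost without any 1 Ctrl library or the third 0.5% library (-0.94 to -1.06), by library size alone (-0.87) and without the count filter (-0.95), and the KRT80 call at 1% without any 1 Ctrl library or the second or the third 1% library (-0.57 to -0.82), by library size alone (-0.57), without the count filter (-0.68) and with GC content and length corrected (-0.47). At 1% against 0.5%, the calls for KRT81 (-1.24, SE 0.46) and KRT10 (0.30, SE 0.10) were each lost when any of 4 libraries was left out, and that for KRT81 also with DESeq2 (-1.23) and with GC content and length corrected (-0.86).

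**Figure D4:**
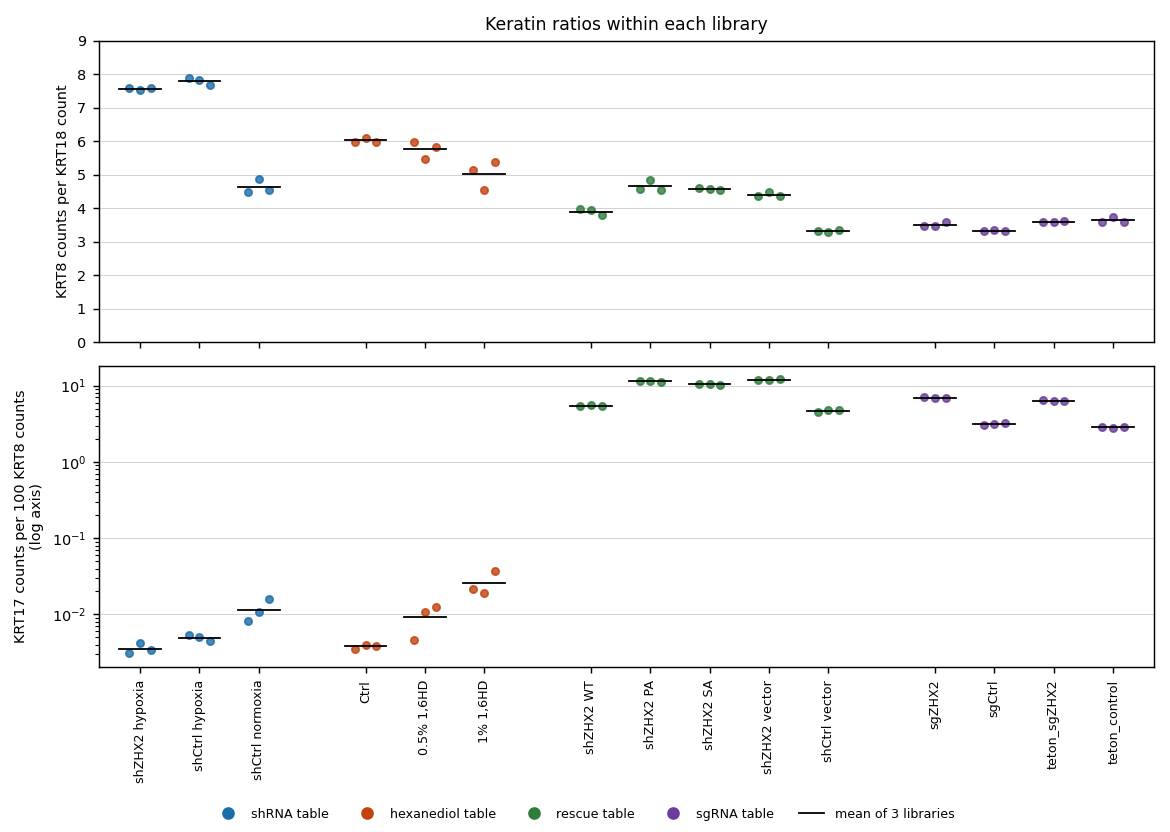
Top, KRT8 counts per KRT18 count (linear axis), and bottom, KRT17 counts per 100 KRT8 counts (log axis), in every library by group, with a bar at the mean of 3 libraries. The KRT17 ratio is 11.9 in shZHX2 vector cells and 4.69 in shCtrl vector cells, and 6.99 with sgZHX2 and 3.12 with sgCtrl.

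Ratios of counts within a library need no scaling between libraries and show the shift between keratins directly. In the rescue table there were 5.46 ± 0.0541 KRT17 counts per 100 KRT8 counts in WT cells, 11.5 ± 0.218 in PA cells, 10.4 ± 0.125 in SA cells, 11.9 ± 0.227 in shZHX2 vector cells and 4.69 ± 0.0956 in shCtrl vector cells (SD, n = 3 each). No group overlapped with WT, and WT did not overlap with shCtrl. In the sgRNA table the ratio was 6.99 ± 0.0772 with sgZHX2 and 3.12 ± 0.0612 with sgCtrl, and 6.33 ± 0.107 with teton_sgZHX2 and 2.84 ± 0.0416 with teton_control. With 3 libraries against 3 an exact permutation test could give no p below 0.1, so these ratios are descriptions. The ratio of KRT8 to KRT18 was 7.80 ± 0.106 in hypoxic and 4.64 ± 0.207 in normoxic shCtrl cells, and among the rescue libraries 3.90 ± 0.0929 in WT cells, 4.66 ± 0.162 in PA cells, 4.57 ± 0.0260 in SA cells and 3.31 ± 0.0350 in shCtrl vector cells. KRT81 outnumbered KRT86 by 28.0 to 33.5 counts to 1 on average in the groups of the rescue table and by 14.3 to 17.8 to 1 in the sgRNA table, and was the rarer of the pair in the shRNA table, at 0.259 to 0.832 to 1.

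Of the 45 other keratin genes, the count filter kept 6 in the shRNA table, 14 in that of hexanediol, 9 in that of the rescue and 11 in that of the sgRNAs. Over all genes, 66.8% were called for shZHX2 against shCtrl in hypoxia and 62.5% for 1% hexanediol against Ctrl. These shares were 69.2% for shZHX2 vector against shCtrl vector, 73.1% for sgZHX2 and 69.1% for teton_sgZHX2. In the same order, the medians of these keratins were -0.98, -1.16, 0.07, 0.87 and 0.64, with -0.04 to 0.02 over all genes. In shZHX2 against shCtrl cells in hypoxia 5 of 6 were lower, among them KRT23 (-1.93, SE 0.08), a type I keratin of simple epithelium, and KRT16 (-2.09, SE 0.44), a stress keratin like KRT17, and none was higher. Of the 9 in the rescue table, 5 were higher and 3 lower in shZHX2 vector than in shCtrl vector cells, with the basal keratin KRT14 at 1.25 (SE 0.45). With sgZHX2 against sgCtrl 6 of 11 were higher and 1 lower, and with teton_sgZHX2 against teton_control 7 were higher and 1 lower; KRT14 was at 1.67 and 1.40, KRT6B at 1.13 and 1.46 and KRT23 at -1.29 and -3.93. KRT6A, KRT6B and KRT6C are near-identical copies, so their counts are uncertain. Some of these genes were near the floor of detection. The median over libraries was at most 0.908 CPM for KRT14 in the rescue table. It was at most 0.819 CPM for KRT14 and KRT23 in the sgRNA table and 0.852 CPM for KRT16 in the shRNA table. At 1% hexanediol against Ctrl 8 of 14 were lower and none higher, with KRT23 at -3.82 (SE 0.12) and KRT4 at -2.51 (SE 0.24).

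Keratin filaments are anchored to desmosomes by plakins such as desmoplakin (DSP), plakophilins (PKP genes) and desmosomal cadherins. Of 14 such genes tested, 12 were lower and 2 higher in shZHX2 than in shCtrl hypoxic cells, with PERP, a desmosome-associated membrane protein, at -1.64 (SE 0.05), and 10 were lower and 2 higher in shZHX2 vector than in shCtrl vector cells, with the cadherin DSC2 at -1.30 (SE 0.08) and PKP1 at -1.27 (SE 0.05). With WT against vector, which shares the shZHX2 vector libraries with that knockdown comparison, 8 were higher and 5 lower. DSC2 was at 1.33 (SE 0.08) and the plakins EPPK1 and PLEC at -2.65 (SE 0.06) and -1.31 (SE 0.03). At 1% hexanediol 10 of 15 were lower than in Ctrl cells and none higher, with JUP, or plakoglobin, at -1.55 (SE 0.07). The medians of these genes were -0.62 for shZHX2 in hypoxia, -0.60 for shZHX2 vector, 0.36 for WT and -0.62 for 1% hexanediol. In the same order, 66.8%, 69.2%, 69.7% and 62.5% of all genes were called. Of the genes of the cornified envelope, the protein shell of keratinising cells, 6 of 7 were lower with shZHX2 in hypoxia, where involucrin (IVL) was at -3.96 (SE 0.21), and 8 of 10 in shZHX2 vector cells, where S100A7 was at -1.42 (SE 0.09). Of 14 such genes, 8 were higher and 3 lower with sgZHX2, and 9 were higher and 2 lower with teton_sgZHX2. SPRR3 was at 2.58 in both and IVL at 1.99 (SE 0.32) and 1.78 (SE 0.30). The medians of the envelope genes were -1.78 for shZHX2 in hypoxia, -0.55 for shZHX2 vector, 0.42 for sgZHX2 and 0.61 for teton_sgZHX2. Over all genes, 73.1% were called with sgZHX2 and 69.1% with teton_sgZHX2.

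Among 16 epithelial transcription factors, 9 were lower and 1 higher in shZHX2 vector than in shCtrl vector cells, and 10 were higher and 2 lower with WT than with vector. Both comparisons use the same shZHX2 vector libraries and are not independent. Over all genes, 69.2% and 69.7% were called. The medians were -0.30 and 0.32 over these factors and -0.01 and 0.00 over all genes. GATA3, a factor of luminal identity, was at -0.91 (SE 0.03) and 1.39 (SE 0.03), and the oestrogen receptor gene ESR1 at -1.11 (SE 0.06) and 1.59 (SE 0.06) in these comparisons. Of the 12 luminal markers, which include both genes, 9 were lower and 3 higher in the knockdown, and 8 were higher and 4 lower with WT. Their sum went the other way, at 12153 to 12694 CPM in shZHX2 vector cells and 8751 to 8977 CPM in shCtrl vector cells. It was 10243 to 10431 CPM in WT cells. With shZHX2 in the shRNA table, 5 of the factors were higher and 7 lower (median -0.06), where 66.8% of all genes were called. GATA3 was at -0.96 (SE 0.03) and the epithelial factor EHF at 0.97 (SE 0.14). At 1% hexanediol 10 of 17 were lower and 5 higher (median -0.76), where 62.5% of all genes were called, with ESR1 at -2.20 (SE 0.12). Of the other intermediate filament genes, LMNB1, a nuclear lamin, was lower with shZHX2 in both tables, at -0.67 (SE 0.05) and -1.14 (SE 0.04).

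Over the 45 libraries, with each table centred on its own mean, the genes whose log2 CPM followed a member most closely were listed by Pearson's r among 10072 genes, as a description over libraries that share groups and depth. KRT8 was followed most closely by its pseudogene KRT8P3 (0.995), a near copy whose counts are uncertain, and then by KRT18 (0.956). KRT19 and KRT15 were each other's near neighbours (0.970), along with PFKFB3 (0.959 and 0.975), a glycolysis regulator. KRT18 was nearest to JPT2 and B4GALT1 (0.968 each), KRT7 to TGIF2 (0.961), KRT86 to MYC (0.929), KRT80 to TUBB (0.883) and KRT10 to RAB5IF (0.855). KRT17 and KRT81 were too low in some tables to be included.

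KRT10, which was higher in shZHX2 vector cells and at 1% hexanediol where most other members were lower, is one of 2 members with a promoter in the RefSeq table used here (GRCh38.p14); KRT8 is the other. The last 100 bases before the KRT10 start, chr17:40822615-40822714 on the minus strand, are shown with a TATAAA match in capitals, at position -29 from the start.
KRT10: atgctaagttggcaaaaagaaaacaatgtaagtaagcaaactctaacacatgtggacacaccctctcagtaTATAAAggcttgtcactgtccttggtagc
Of 35116 promoters of the same length, from 250 bases before the start to 50 after it, 11.5% held TATAAA on either strand. The core letters of the hypoxia response element, ACGTG or its form GCGTG, the AP-1 motif TGANTCA and the GC box GGGCGG had no match in the KRT10 window on either strand. Of all promoters 21.4%, 36.5%, 7.71% and 45% held these motifs. None of the 5 motifs had a match in the KRT8 window. Only 1 of 17 annotated KRT8 transcripts started within 100 bases of the start used for that window. The other KRT8 starts were not searched.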

How the data were processed

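Gene expression was measured by polyA RNA sequencing with 150 bp read pairs in 45 libraries, per the labels' protocols. The authors deposited whole-number read counts per gene in 4 tables, not normalised; FastQC, HISAT2, featureCounts, DESeq2 and hg38 are named in the submitters' processing notes, without versions or roles. The sources used here give neither their annotation nor their strand setting. All columns were mapped to a sample by their labels, and 0 columns were left out. The columns named sgNC were taken as sgCtrl because they were the only other guide columns without teton. That assignment is an inference.

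From the counts, CPM were computed separately for each table, using effective library sizes from TMM, and RPKM from them with the exon length in GENCODE 29. Each table was fitted as a whole with edgeR 4.0.16 in R 4.3.3 (filterByExpr, TMM, robust glmQLFit, glmQLFTest), with Benjamini-Hochberg adjustment over all genes tested and a threshold of 0.05. An SE is the log2 fold change over the square root of F. For the shRNA table, 14903 genes were tested, libraries held 17476890 to 19480495 counts and the biological coefficient of variation was 4.15%. For hexanediol these were 16840 genes, 14111216 to 17713327 counts and 10.2%, for the rescue 14302 genes, 18056398 to 24760885 counts and 3.16%, and for the sgRNAs 15781 genes, 21225854 to 27217814 counts and 2.81%. Chi-square over its degrees of freedom was 1.77 to 29.5 for the 45 replicate pairs, so none was taken for a duplicate. The fit was tested on simulated counts.

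Alternatives were DESeq2 1.42.0, DESeq2 size factors, library size alone, no count filter, a spline correction of fold changes for GC content and length, a replicate block, both together, the compared groups alone, each library left out in turn, and both second hexanediol libraries left out. Whether replicate numbers pair libraries was checked from the correlation of deviations from group means. For 0.5% and 1% hexanediol each same-number correlation was over 0.1 (0.268, 0.466 and 0.268, against at most 0.263 between different numbers). For no other pair of groups was each of them over 0.1. The second libraries of both doses stood apart from their replicates, which can raise these correlations without pairing. Whether the numbers pair these libraries was therefore not settled, and the reported fits used no replicate block.

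The members and the gene lists were chosen with earlier results of these data known. All 10 members are reported in each comparison. Of other genes, keratins that passed the filter in at least 1 table, up to 4 genes per list and comparison with the largest called change, and the 3 genes most like each member could be named, not all of which are given. Promoter and exon sequence came from RefSeq and GENCODE on GRCh38.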

Additional observations from a re-analysis of the deposited data

Results flagged for a closer look

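The effect of teton_sgZHX2 against teton_control was set against that of sgZHX2 against sgCtrl in 1 model, and the difference passed the threshold for 3 keratins. It was -0.34 on the log2 scale for KRT10 (SE 0.09, adjusted p = 0.0054), where sgZHX2 libraries held 20.7, 22.3 and 23.0 CPM against 16.7, 15.8 and 15.4 CPM in sgCtrl, and teton_sgZHX2 libraries 16.8 ± 0.862 CPM against 15.4 ± 0.972 CPM in teton_control (SD, n = 3 each). It was -0.15 for KRT7 (SE 0.05, adjusted p = 0.0237) and -0.12 for KRT80 (SE 0.03, adjusted p = 0.00467).

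For 2 keratins every shZHX2 library moved one way in the rescue table and the other way in the shRNA table, relative to the shCtrl libraries in hypoxia. The log2 changes of KRT17 were 0.75 in the rescue table and -1.89 in the shRNA table, 2.64 apart, and those of KRT10 were 1.11 and -0.73, 1.84 apart. The difference was not tested, because the tables were not normalised together, and the KRT10 change in the shRNA table was not called by edgeR (adjusted p = 0.0542).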

How the results depend on the processing

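Of 2274 values of the keratins under other settings, 2046 kept their direction and their side of the threshold, 71 lost a call, 45 gained one and 112 changed sign. Of the 1002 values with 1 library left out 26 changed sign, all of them called neither before nor after. The number of keratins called was within 1.5 times of the reported one except as follows. For hypoxia against normoxia it was 5 with GC content and length corrected, with or without a replicate block, instead of 8. For PA against vector it was 8 by library size alone instead of 5. For the difference of the teton_sgZHX2 and sgZHX2 effects it was 1 to 4 with 1 library left out, instead of 3, and 1 without the first teton_control library. Over all genes, 3790 were called for SA against vector with GC content and length corrected, and 3769 with a replicate block as well, instead of 5964, and 1434 and 1401 for the difference of the sgRNA effects instead of 3206.

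By library size alone the median of all genes moved by -0.48 for hypoxia against normoxia, 0.23 for shZHX2 against shCtrl in hypoxia, -0.25 for shZHX2 in hypoxia against normoxia, 0.12 and 0.18 for 0.5% and 1% hexanediol against Ctrl, -0.10 for WT and 0.15 for PA against vector, -0.11 for WT against shCtrl and 0.25 for PA against WT. The values that turned were KRT17 at -0.25 and KRT81 at -0.04 (hypoxia against normoxia), KRT8 at -0.22 and KRT86 at -0.14 (shZHX2 hypoxia against normoxia), KRT7 at -0.09 (WT against vector), KRT8 at 0.10, KRT18 at 0.03, KRT17 at 0.05, KRT80 at 0.10 and KRT81 at 0.11 (PA against vector), KRT15 at -0.04 and KRT17 at -0.02 (WT against shCtrl), KRT10 at 0.22 (PA against WT), KRT19 at 0.03 (sgZHX2 against sgCtrl) and KRT15 at 0.01 (difference of the effects). The last was also 0.01 by DESeq2 and 0.00 with its size factors; without the count filter KRT8 turned to -0.01 (shZHX2 hypoxia against normoxia), and KRT10 (SA against vector) and KRT19 (sgZHX2 against sgCtrl) to 0.00.

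With GC content and length corrected, with or without a replicate block, these turned: KRT7 at -0.35, KRT17 at -0.55 (-0.53 with the block), KRT80 at -0.06 and KRT81 at -0.54 (hypoxia against normoxia); KRT8 at -0.40 and KRT86 at -0.58, or -0.59 with the block (shZHX2 hypoxia against normoxia); KRT8 and KRT18 at 0.02, KRT17 at 0.07, KRT80 at 0.06 and KRT81 at 0.20 (PA against vector); KRT7 at 0.11, KRT19 at 0.14 and KRT17 at 0.07 (SA against vector); KRT8 at 0.10 (WT against shCtrl); KRT10 at 0.08 (PA against WT); KRT7 at -0.11, KRT8 at -0.23, KRT18 at -0.38, KRT15 at -0.16 and KRT80 at -0.25 (sgZHX2 against sgCtrl); KRT7 at -0.09, KRT8 at -0.17, KRT18 at -0.24, KRT15 and KRT10 at -0.04 and KRT80 at -0.24 (teton_sgZHX2 against teton_control); and KRT7 at 0.02, KRT8 at 0.06, KRT19 at 0.10, KRT15 at 0.12, KRT17 at 0.05 and KRT80 at 0.00 (difference of the effects). The correction moved the median of all genes for hypoxia against normoxia by -0.17. The cause of these turns was not tested.

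With 1 library left out, the values that changed sign ranged from -0.11 to 0.27 for KRT86 and -0.27 to 0.24 for KRT10 (shZHX2 hypoxia against normoxia), -0.02 to 0.04 for KRT7 (WT against vector), -0.04 to 0.12 for KRT86 and 0.00 to 0.09 for KRT15 (PA against vector), -0.05 to 0.02 for KRT10 (SA against vector), -0.12 to 0.09 for KRT10 (PA against WT), 0.00 to 0.03 for KRT18 and -0.03 to 0.00 for KRT19 (sgZHX2 against sgCtrl), and -0.02 to 0.03 for both KRT15 and KRT81 (difference of the effects).

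The replicate block alone changed 2 calls, with KRT10 called at 0.26 for 0.5% hexanediol against Ctrl (adjusted p = 0.0467) and KRT18 not called at 0.05 for teton_sgZHX2 against teton_control (adjusted p = 0.0572). It changed no call for 1% against 0.5% hexanediol, where the numbers may pair the libraries. Depth limits KRT17 and KRT81 in the shRNA and hexanediol tables and KRT86 at 1% hexanediol.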
